A study of Rattus norvegicus with 12 samples.

Results

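The genes described here encode the proteins of the cytosolic ribosome. They are all gene symbols made of Rpl or Rps and a number, with Rplp0 to Rplp2 and Rpsa, and without the Rps6k kinases, Rps19bp1, Rpl10l and pseudogene symbols. The rule used names only and gave 101 of the 33294 genes in the count table. Of these, 44 were genes of the large subunit and 29 were genes of the small subunit. A further 7 were paralogs, which encode a variant of a ribosomal protein (Rpl3l, Rpl7l1, Rpl22l1, Rpl36al, Rpl39l, Rps27l and Rps4y2), and 21 were numbered copies such as Rplp0l1. Rpl35a, Rpl37a, Rps9 and Rps19 were not analysed here under their own symbols, and RefSeq lists Rpl35al1, Rps9l1 and Rps19l2 as earlier symbols of Rpl35a, Rps9 and Rps19.

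The cells were PAC1, a rat pulmonary artery smooth muscle cell line, from which poly(A) RNA was sequenced in 12 libraries, 3 in each of 4 groups. D1 cells were kept in the more differentiated state by weekly passage (PAC1-D) and received control siRNA. P cells were the more proliferative PAC1 cells, passaged more often at a higher dilution, and also received control siRNA. RBPMS KD1 and MBNL KD were PAC1-D cells that received siRNAs against Rbpms, or against Mbnl1 and Mbnl2 together. All 4 groups thus shared the same line and the same transfection. The labels give 90 pmol of siRNA, a second dose after 24 h and harvest 48 h later, whereas the methods describe later times for both steps. The methods describe biological replicates of each condition, but the labels do not say that the 3 libraries of a group came from separate cultures. If they did not, p-values measure only the spread between these libraries, which may be technical.

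Total counts lay between 80842635 and 90771289 per library, and the lowest total was that of MBNL KD replicate 3, which also differed most from the other libraries of its group. TMM-scaled Rbpms counts in RBPMS KD1 were 25.01% of the D1 mean, and Mbnl1 and Mbnl2 in MBNL KD were at 23.8% and 29.6%. In P, Rbpms was at 6.32% of D1. All 8 smooth muscle markers were detected in D1, with a summed scaled count of 870347 to 914855, against 18716 to 19888 in P, 433760 to 449217 in RBPMS KD1 and 694962 to 705331 in MBNL KD. Of the endothelial markers, Cdh5, Kdr and Emcn had no counts in D1, and the 6 summed to between 66.2 and 72.4 there, 482 and 600 in P, 162 and 163 in RBPMS KD1 and 83.2 and 126 in MBNL KD. The 2 that were tested in RBPMS KD1, Vwf and Tek, were past both thresholds (an adjusted p under 0.05 in edgeR and a log2 fold change over 1 in size), at 1.22 and 1.32. The 6 leukocyte markers summed to at most 148 in any library, and Csf1r was past both thresholds in MBNL KD, at 1.3. The 5 epithelial markers summed to between 3154 and 3310 in D1, 7130 and 7399 in P, 3448 and 3677 in RBPMS KD1 and 4763 and 4846 in MBNL KD, with Epcam and Cdh1 at 0 in D1. Krt8, which made up most of that sum, was higher in all 3, by 1.17, 0.14 and 0.58 on the log2 scale. The part of these differences in the results below was not tested.

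Cytosolic ribosomes are built in the nucleolus from ribosomal RNA made largely by RNA polymerase I and from ribosomal proteins imported from the cytoplasm. The messenger RNAs of ribosomal proteins and of many translation factors start with a run of pyrimidines, the 5′ terminal oligopyrimidine (TOP) tract, through which mTORC1 and the RNA-binding protein LARP1 control their translation and stability. Growing cells invest heavily in this set, and smooth muscle cells leaving the contractile state change both growth and protein synthesis. Some ribosomal proteins have paralogs with tissue-restricted expression, such as Rpl3l in striated muscle and Rpl39l in testis.

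The bases around the start sites are shown for the genes on which the results turn, to set the stalk genes side by side and each paralog beside its canonical gene. Each line gives 10 bases before and 20 bases from the annotated start in RefSeq's GRCr8 assembly, on the gene's strand. Capitals mark a start tract, defined as C followed by at least 4 bases that are each C or T, beginning within 5 bases of the start.
Rplp0 (chr12:46718371-46718400, minus strand): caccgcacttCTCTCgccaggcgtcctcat
Rplp1 (chr8:71290853-71290882, minus strand): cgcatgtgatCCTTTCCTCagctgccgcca
Rplp2 (chr1:205975911-205975940, plus strand): cgccgccggacgccgccgaggtcgcacgcg
Rpl39 (chrX:121195877-121195906, minus strand): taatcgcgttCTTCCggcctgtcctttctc
Rpl39l (chr10:5966602-5966631, minus strand): caggccgtcccgctatcctggtgtgtggtc
Rps27 (chr2:177964587-177964616, minus strand): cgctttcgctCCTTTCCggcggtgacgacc
Rps27l (chr8:76443648-76443677, plus strand): ttcatttgtcattatttgtggtgtccagag
Rpl22 (chr5:168117951-168117980, plus strand): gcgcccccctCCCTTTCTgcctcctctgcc
Rpl22l1 (chr2:113683186-113683215, plus strand): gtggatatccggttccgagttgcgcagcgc
Rpl3 (chr7:113507971-113508000, minus strand): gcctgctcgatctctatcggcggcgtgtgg
Rpl3l (chr10:14258436-14258465, plus strand): ctggtgcctggtggggaggtcccttcctaa
Rplp0, Rplp1, Rpl39, Rps27 and Rpl22 begin with a tract on their first base. None of the 4 paralogs shown has a tract in this window, and neither do Rplp2 and Rpl3 at these annotated starts. Rpl39l was matched through its symbol Rpl39l1 in that table.

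Promoters were matched for 72 of the 101 genes, and 38 of them (52.8%) held the tract, against 17.0% of all 33469 promoters in the table. It was found in 21 of 35 large-subunit genes, 14 of 21 small-subunit genes, 2 of 9 numbered copies and 1 of 7 paralogs, Rps4y2. Among the other lists, 4 of 10 other genes with TOP mRNAs, 4 of 22 ribosome biogenesis genes and 14 of 59 mitochondrial ribosome genes had it. A match describes letters at an annotated start and is not a measured start site.

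Summed, the 101 genes held 1.78% ± 0.0241 of all counts in D1 (SD, n = 3), 1.95% ± 0.0154 in P, 1.93% ± 0.0271 in RBPMS KD1 and 1.69% ± 0.0153 in MBNL KD. The 3 libraries of each of the other groups lay wholly above D1 (P and RBPMS KD1) or wholly below it (MBNL KD). After TMM scaling, which discounts the genes that differ most between libraries, the sums were 98.1% ± 1.11 of the D1 mean in P, 107% ± 2.02 in RBPMS KD1 and 91.2% ± 0.34 in MBNL KD. For P the direction thus depended on the scaling, and D1 and P overlapped after it. Rplp0 alone took 0.1003% of counts in D1 and 0.0342% in MBNL KD. Without Rplp0, the share was 1.68% ± 0.0224 in D1 and 1.65% ± 0.0152 in MBNL KD, and these libraries overlapped. From the authors' normalised values that share was 1.65% ± 0.0207 in D1 and 1.66% ± 0.0166 in MBNL KD, again with overlap. The sum without Rplp0 was not taken after TMM scaling. The 5 genes with most counts in D1, which were Rpl3, Rpsa, Rplp0, Rps6 and Rpl4, held 0.454% of all counts there.

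**Figure D1:**
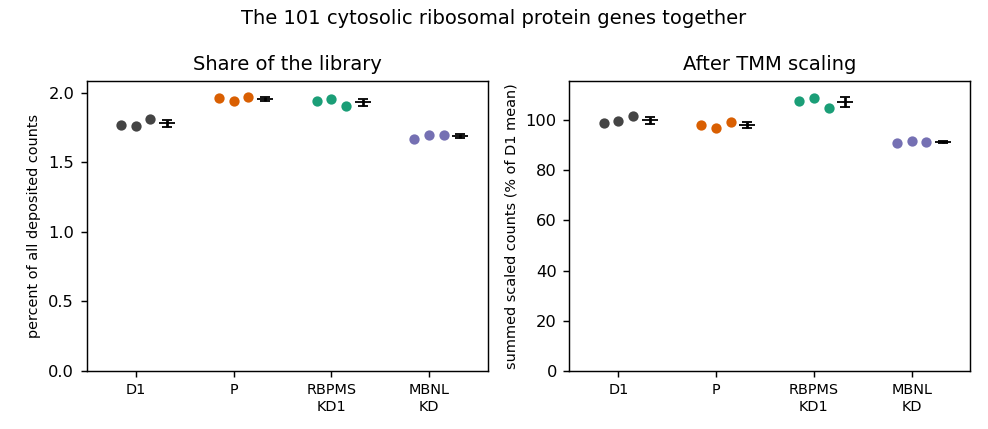
The left panel plots the percent of all deposited counts held by the 101 genes in each library, and the right panel their summed TMM-scaled counts as a percent of the D1 mean; points are libraries and bars are the mean and SD of 3. P lies above D1 on the left (1.95% against 1.78%) but not on the right (98.1%), while MBNL KD is lowest in both.

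The comparison of P with D1 addressed which ribosomal protein genes differ between the proliferative and the differentiated state. Of 99 genes tested, 18 were higher and 44 lower in P at an adjusted p under 0.05 (quasi-likelihood test in edgeR, Benjamini-Hochberg adjusted over all genes), whereas over all 16814 genes tested 40.4% were higher and 37.6% lower. Most changes were small, and 88 of the 99 log2 fold changes were within 0.5 of 0, with a median of -0.06 against 0.02 over all genes. Past both thresholds of the study's methods, an adjusted p under 0.05 and a log2 fold change beyond 1 either way, 1 gene was higher (Rpl39l) and 1 lower (Rpl3l). Of all genes, 16.4% were past both thresholds upwards and 11.2% downwards. The libraries of P and D1 did not overlap for 19 genes higher and 46 lower, against 41.3% and 37.9% of all genes. With quantile normalization instead of TMM the counts were 37 higher and 39 lower, against 36.7% and 43.1% of all genes in that fit, so that the excess of lower genes rests on the scaling. The median was then -0.02 against -0.07 over all genes, which turns the contrast with all genes. Past both thresholds there were then 5 genes, and there was 1 with halved counts or limma and 0 with at least 10 counts in every library, a filter that leaves out Rpl39l and Rpl3l.

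Rpl39l, the paralog of the exit tunnel protein Rpl39, had 6, 8 and 10 counts in the 3 D1 libraries and 3893, 3807 and 3971 in P. It had 10, 10 and 2 counts in RBPMS KD1 and 10, 6 and 10 in MBNL KD, so that P stood apart from all 9 libraries of PAC1-D cells. The log2 fold change in P was 8.79 ± 0.10 (SE, adjusted p = 6.9e-37, edgeR). Rpl39 itself fell, from scaled counts of 897, 873 and 794 in D1 to 517, 534 and 553 in P, a log2 fold change of -0.68 ± 0.071 (adjusted p = 2.4e-10). It was also lower in RBPMS KD1, at -0.28 ± 0.068 (adjusted p = 0.00074, edgeR), and was at 0.01 ± 0.065 in MBNL KD. Rpl39 was among the 16 canonical genes with a D1 mean under 1000 scaled counts, of which 12 were lower and 0 higher in P. The paralog's share of the counts of the pair went from 0.960% ± 0.296 in D1 to 87.3% ± 0.293 in P, and was 1.03% in each knockdown. In D1, Rpl39 held 779 to 879 counts while Rpl39l held at most 10.

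Rpl3l, the striated muscle paralog of the peptidyl transferase protein Rpl3, was barely detected. Its counts were 14, 22 and 16 in D1, 2, 10 and 6 in P, 4, 11 and 12 in RBPMS KD1 and 44, 63 and 52 in MBNL KD. P and RBPMS KD1 lay below D1 and MBNL KD above it, without overlap. The log2 fold changes were -1.63 ± 0.51 in P (adjusted p = 0.0045), -0.96 ± 0.47 in RBPMS KD1 (adjusted p = 0.082) and 1.61 ± 0.33 in MBNL KD (adjusted p = 7.3e-05). At these depths Rpl3l made up at most 0.0702% of the counts of the pair with Rpl3 in any library.

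Rps27l and Rps27 encode alternative forms of one small-subunit protein, and the human gene of Rps27l is known as a p53 target. Scaled counts of Rps27l were 8719, 9127 and 9094 in D1, 7118, 7062 and 7259 in P, 12763, 13212 and 13320 in RBPMS KD1 and 11599, 11938 and 12437 in MBNL KD. P was the lowest and RBPMS KD1 the highest group, with no overlap between any pair of groups. Rps27l fell in P, with a log2 fold change of -0.33 ± 0.028 (adjusted p = 1.3e-12), and rose by 0.55 ± 0.028 in RBPMS KD1 (5.6e-16) and by 0.42 ± 0.027 in MBNL KD (1.7e-14). Rps27 rose in all 3 comparisons, by 0.35 in P, 0.38 in RBPMS KD1 and 0.33 in MBNL KD on the log2 scale, and these comparisons share the D1 libraries. Rps27l was 41.8% ± 0.933 of the counts of the pair in D1, 30.9% ± 0.723 in P, 44.6% ± 1.43 in RBPMS KD1 and 43.4% ± 1.51 in MBNL KD.

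Rpl22l1, the paralog of Rpl22, had scaled counts of 3065, 3148 and 3628 in D1, 4456, 3977 and 4413 in P, 2943, 3096 and 2771 in RBPMS KD1 and 3762, 3957 and 4255 in MBNL KD. It rose in P (log2 fold change 0.38 ± 0.047, adjusted p = 8.2e-09) and in MBNL KD (0.28 ± 0.048, adjusted p = 6.2e-06). The lower value in RBPMS KD1, -0.16 ± 0.050, passed the test (adjusted p = 0.0077) but not without D1 replicate 3 (-0.08) or RBPMS KD1 replicate 3 (-0.12). Rpl22, the canonical partner, changed the other way in P (-0.36 ± 0.091) and in RBPMS KD1 (0.28 ± 0.081), and rose like Rpl22l1 in MBNL KD (0.29 ± 0.084, adjusted p = 0.0033). The share of Rpl22l1 in the pair was 86.2% ± 1.08 in D1, 91.2% ± 0.673 in P, 82.1% ± 0.344 in RBPMS KD1 and 86.1% ± 1.46 in MBNL KD.

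**Figure D2:**
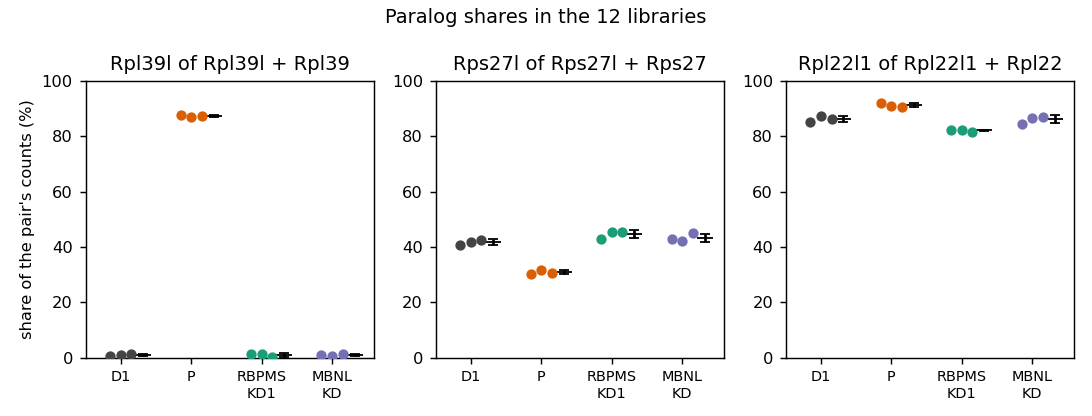
Each panel plots the paralog's percent of the deposited counts of a paralog and its canonical gene in the 12 libraries; points are libraries and bars are the mean and SD of 3. Rpl39l goes from 0.960% in D1 to 87.3% in P, Rps27l from 41.8% to 30.9% and Rpl22l1 from 86.2% to 91.2%.

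In all, 21 paralog shares were compared with D1 by a two-sided exact permutation test. With 3 libraries against 3 the smallest p is 0.1, so no share could pass 0.05, and the adjusted p was 0.162 for each share whose libraries did not overlap with D1. Rpl7l1, a paralog of Rpl7, made up 24.3% ± 0.196 of its pair in D1, 23.0% ± 0.215 in P, 18.0% ± 0.559 in RBPMS KD1 and 28.1% ± 0.301 in MBNL KD, with no overlap with D1 in any group. Rpl36al, the paralog of Rpl36a, held between 95.9% and 98.0% of its pair in every library. Rps4y2, a paralog of Rps4x, had between 6 and 19 counts in each library and passed in no comparison in which it was tested. Some canonical symbols held few counts, and Rps18 had a D1 mean of 1027 scaled counts against 31376 for the numbered copy Rps18l1. How reads shared by similar genes were counted is not given in the sources used here. The paralog shares may therefore differ from those of the transcripts.

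Among the genes listed under canonical symbols, the largest falls in P after Rpl39 were those of Rpl32, with a log2 fold change of -0.64 ± 0.11 (adjusted p = 3.0e-06), and of Rps27a, with -0.61 ± 0.067 (adjusted p = 9.3e-10). Rps27a encodes a fusion of ubiquitin with a small-subunit protein, and its scaled counts were 941, 941 and 1064 in D1 against 646, 669 and 628 in P. Rpl35al1, which may be Rpl35a under its earlier symbol, fell by 0.77 ± 0.19 in P (adjusted p = 0.00039). The largest rises after Rpl39l were Rps12l2, at 0.57 ± 0.29 with an adjusted p of 0.075, then Rpl22l1, Rps27 and Rpl22l2, the last at 0.35 ± 0.19 with an adjusted p of 0.095.

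The genes with the most counts moved little in P and in different directions. Rpl4 rose, from 66172, 64126 and 66095 scaled counts in D1 to 74744, 74859 and 77095 in P, a log2 fold change of 0.20 ± 0.024 (adjusted p = 2.5e-09). Rpsa, a small-subunit protein also known as the laminin receptor precursor, went from 92096, 94168 and 95773 to 76821, 74728 and 76713, a change of -0.31 ± 0.023 (adjusted p = 8.5e-14). Rpl3 was at -0.18 ± 0.023, Rplp0 at -0.07 ± 0.024 and Rps6, the S6 kinase substrate, at -0.08 ± 0.027, each with an adjusted p under 0.05, though Rps6 did not pass without P replicate 1 (-0.04). With quantile normalization Rpsa, Rpl3, Rplp0 and Rps6 were higher in P, by 0.05 for Rpsa, 0.15 for Rpl3, 0.26 for Rplp0 and 0.22 for Rps6. The direction of these 4 genes in P therefore depended on the scaling. Rps24 was at -0.20 ± 0.035 (adjusted p = 3.7e-06). Rpl5 and Rpl11, which together with 5S ribosomal RNA bind Mdm2, were at 0.02 ± 0.023 and 0.06 ± 0.023 in P, and the latter did not pass without D1 replicate 3 (0.05) or P replicate 1 (0.06).

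**Figure D3:**
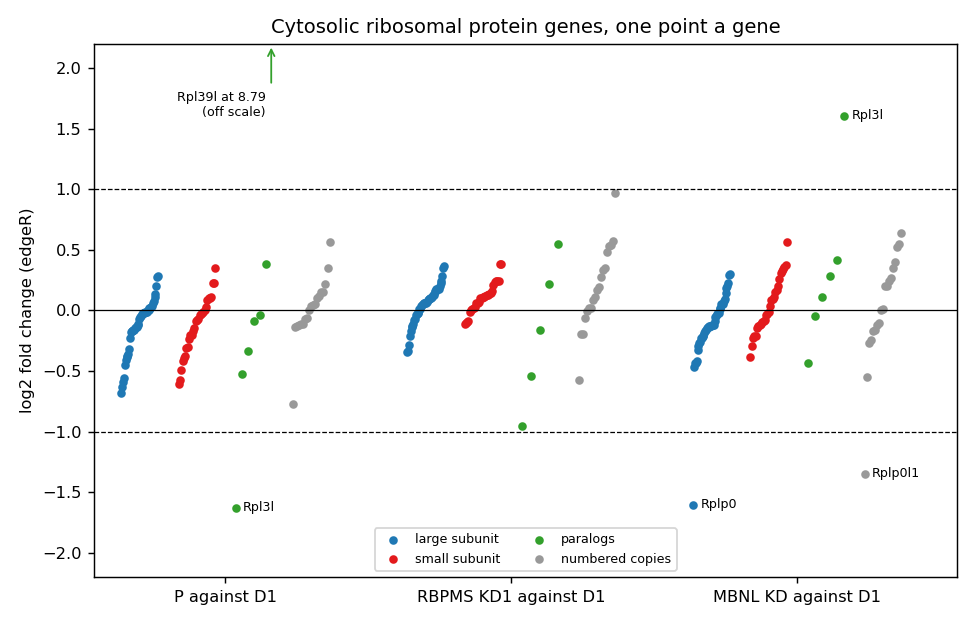
Each point is the edgeR log2 fold change of 1 gene in 1 comparison with D1, coloured by class and sorted within it; dashed lines mark 1 and -1, and the arrow marks Rpl39l, off the scale at 8.79. Most points lie within 0.5 of 0, and the genes beyond 1 are Rpl39l and Rpl3l in P and Rpl3l, Rplp0 and Rplp0l1 in MBNL KD.

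The comparison of RBPMS KD1 with D1 addressed the effect of lowering Rbpms in differentiated cells. Of 97 genes tested, 44 were higher and 11 lower at an adjusted p under 0.05 (edgeR), against 29.5% higher and 29.5% lower over all 15904 genes tested. The count of lower genes was 6 without D1 replicate 3 and 7 without RBPMS KD1 replicate 3, with limma or at an adjusted p under 0.01. The median log2 fold change was 0.09, against 0.00 over all genes. The small subunit had 16 genes higher and 1 lower of 29, and the large subunit had 20 higher and 7 lower of 44. No gene was past both thresholds (0 of 97), with 57 genes at an unadjusted p under 0.05 and 0 past both thresholds in DESeq2 or in limma. Over all genes, 3.06% were past both thresholds upwards and 1.62% downwards. The libraries did not overlap for 44 genes higher and 13 lower, against 31.5% and 31.9% of all genes.

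Rpl7l1, Rpl8 and Rpl7a were among the lower genes in RBPMS KD1 that had no overlap with D1. Rplp0, Rpl12, Rpl39, Rps2, Rpl36 and Rpl22l2 were others. Rpl7l1 fell from 12953, 13227 and 13452 scaled counts in D1 to 9026, 8830 and 9324, a log2 fold change of -0.54 ± 0.028 (adjusted p = 6.2e-16). Rpl8 was lower by -0.34 ± 0.081 (adjusted p = 0.00061) and Rpl7a by -0.33 ± 0.077 (adjusted p = 0.00051), both proteins of the large subunit. Rpl22l2 was at -0.57 ± 0.23 (adjusted p = 0.034), on 44 to 92 counts per library, and did not pass without any of D1 replicates 1 to 3 or RBPMS KD1 replicates 1 and 2, at between -0.42 and -0.61. Rpl36al rose by 0.22 ± 0.028 (adjusted p = 1.4e-07).

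The largest rise was that of the copy Rps15al1, with 14, 24 and 10 counts in D1 and 36, 26 and 34 in RBPMS KD1. Its log2 fold change of 0.97 ± 0.38 (adjusted p = 0.028) went past 1 without D1 replicate 2 (1.39) or RBPMS KD1 replicate 2 (1.10), and did not pass the test without D1 replicates 1 or 3 or RBPMS KD1 replicates 1 or 3, at between 0.72 and 0.93. Rps19l1 was at 0.53 ± 0.23 (adjusted p = 0.047), and did not pass without any one of D1 replicates 1 and 2 or RBPMS KD1 replicates 1 to 3, at between 0.37 and 0.60. Rps17l (0.57 ± 0.41) and Rps12l2 (0.54 ± 0.33) did not pass, on 12 to 60 counts per library. Without RBPMS KD1 replicate 3 both passed, at 0.96 and 0.85. Among the genes with most counts, Rpl4 rose by 0.23 ± 0.026 (adjusted p = 1.5e-08) and Rpsa by 0.10 ± 0.024 (adjusted p = 0.00064). Rplp0 fell by 0.14 ± 0.026 (adjusted p = 5.0e-05), while Rpl3 at 0.04 ± 0.024, Rps6 at 0.00 ± 0.024 and Rps24 at -0.01 ± 0.032 did not pass. Rpl11 rose by 0.13 ± 0.025 (adjusted p = 8.7e-05).

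The comparison of MBNL KD with D1 addressed the effect of lowering both muscleblind-like proteins. Of 98 genes tested, 27 were higher and 42 lower at an adjusted p under 0.05 (edgeR), against 33.8% higher and 33.7% lower over all 16053 genes tested. With quantile normalization the counts were 31 higher and 28 lower, against 35.3% and 32.3% of all genes in that fit, near which they lay, and the median was -0.0049. Past both thresholds 1 gene was higher (Rpl3l) and 2 were lower (Rplp0 and its copy Rplp0l1), against 6.1% and 4.14% of all genes. With limma on the authors' normalised values, Rplp0 alone stayed past both. Those values carry an added constant of 35, which shrinks the changes of genes with few counts. Rpl3l (0.68) and Rplp0l1 (-0.82) still passed an adjusted p under 0.05 there. The libraries did not overlap for 27 genes higher and 42 lower, against 35.1% and 35.2% of all genes. The median was -0.04, against 0.01 over all genes. The large subunit had 24 genes lower and 8 higher of 44, and the small subunit had 10 lower and 13 higher of 29. With quantile normalization these were 17 lower and 12 higher of the large and 5 lower and 13 higher of the small subunit.

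Rplp0 encodes the base of the ribosomal stalk, which holds the acidic proteins encoded by Rplp1 and Rplp2 and recruits translation factors to the ribosome. Scaled counts of Rplp0 were 90442, 93207 and 94703 in D1, 89280, 87327 and 88912 in P, 83418, 87277 and 82020 in RBPMS KD1, and 30602, 30497 and 30319 in MBNL KD. All 3 MBNL KD libraries were far below the other 9, which lay between 82020 and 94703. The MBNL KD mean was 32.8% of that in D1, for a log2 fold change of -1.60 ± 0.025 (adjusted p = 2.4e-29), and the direct comparison with RBPMS KD1 gave -1.47 ± 0.027 (adjusted p = 4.4e-28).

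The partners of Rplp0 in the stalk did not share this fall. Rplp1 rose, from 15687, 15592 and 14840 scaled counts in D1 to 17027, 18243 and 16980 in MBNL KD, a log2 fold change of 0.18 ± 0.028 (adjusted p = 1.6e-06). Rplp2 had 1278, 1229 and 1270 in D1 and 1339, 1481 and 1344 in MBNL KD, at 0.14 ± 0.055 (adjusted p = 0.023), and did not pass without D1 replicate 2 (0.12) or MBNL KD replicate 2 (0.09). In P, Rplp2 fell by 0.32 ± 0.056 (adjusted p = 4.6e-06) and Rplp1 was at -0.01 ± 0.026. In RBPMS KD1, Rplp1 rose by 0.11 ± 0.027 (adjusted p = 0.0012), with Rplp2 at 0.05 ± 0.054.

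**Figure D4:**
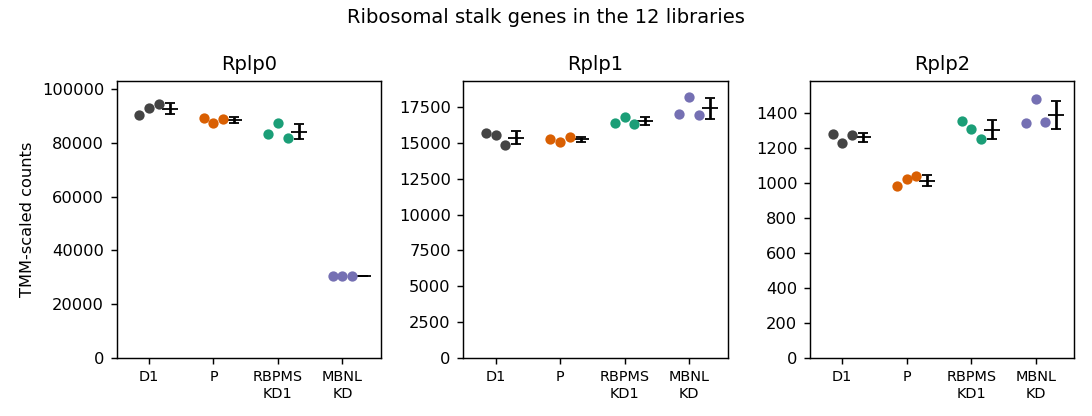
TMM-scaled counts of Rplp0, Rplp1 and Rplp2 in the 12 libraries, each panel with its own axis from 0; points are libraries and bars are the mean and SD of 3. The 3 MBNL KD libraries lie between 30319 and 30602 for Rplp0, below all others, and between 16980 and 18243 for Rplp1, above all others.

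Rplp0l1, a copy named after Rplp0, had 36 to 70 counts in D1 and 30, 22 and 10 in MBNL KD. Its log2 fold change was -1.35 ± 0.35 (adjusted p = 0.0011), and it was 0.0579% ± 0.0178 of the Rplp0 counts in D1 and 0.0683% ± 0.0308 in MBNL KD. Rpl27 fell from 21105, 21010 and 21324 scaled counts in D1 to 15579, 15292 and 14984, a log2 fold change of -0.47 ± 0.025 (adjusted p = 1.7e-16). Rpl27-l1, at 23.6% ± 0.497 of the Rpl27 counts in D1 and 22.3% ± 0.755 in MBNL KD, fell by 0.55 ± 0.033 (adjusted p = 6.2e-15). How reads shared by such copies were counted is not given in the sources used here, so the copies are uncertain as genes of their own.

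Further large-subunit genes fell in MBNL KD. Rpl36 had scaled counts of 3505, 3492 and 3788 in D1 and 2647, 2794 and 2527 in MBNL KD, with a log2 fold change of -0.43 ± 0.042 (adjusted p = 1.6e-10), whereas it rose in P by 0.29 ± 0.036 (adjusted p = 1.2e-08). Rpl36al fell from 8702, 8590 and 8925 to 6585, 6584 and 6232, also by 0.43 ± 0.028 (adjusted p = 2.0e-14). Rpl5 fell by 0.21 ± 0.025, Rpl3 by 0.21 ± 0.022, Rpl11 by 0.14 ± 0.025 and Rps6 by 0.14 ± 0.024, each with an adjusted p under 0.05, and Rpl11 and Rps6 did not pass with quantile normalization (-0.03 and -0.02). Rps24, at -0.13 ± 0.036 (adjusted p = 0.0026), did not pass with it either (-0.05). Rpl4, at -0.02 ± 0.024, did not pass with TMM and was 0.11 with quantile normalization and 0.10 with limma on the authors' normalised values.

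Rps28, a small-subunit protein, had scaled counts of 201, 236 and 213 in D1, 175, 138 and 151 in P, 208, 187 and 213 in RBPMS KD1 and 300, 363 and 296 in MBNL KD. MBNL KD lay above and P below all other libraries, with log2 fold changes of 0.56 ± 0.11 (adjusted p = 8.1e-05) and -0.49 ± 0.14 (adjusted p = 0.0018). Rps27a rose by 0.36 ± 0.059 (adjusted p = 3.7e-06) and Rpsa by 0.20 ± 0.022 (adjusted p = 4.0e-09). Rpl7l1 rose by 0.11 ± 0.023 (adjusted p = 0.00010). Of the copies, Rps12l3 was at 0.52 ± 0.22 (adjusted p = 0.040) on 44 to 78 counts per library in D1 and MBNL KD, and did not pass without any one of D1 replicates 2 and 3 or MBNL KD replicates 1 to 3, at between 0.40 and 0.56. Rps12l2 (0.64 ± 0.30) and Rps15al1 (0.55 ± 0.43) did not pass, the former with an adjusted p of 0.059 and past the test without MBNL KD replicate 2 (0.79).

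Compared directly, 18 of 97 genes were higher and 56 lower in MBNL KD than in RBPMS KD1 (edgeR, adjusted p under 0.05), against 35.1% and 34.5% of the 16111 genes tested. The median log2 difference was -0.14, against 0.01 over all genes. Past both thresholds, Rpl3l was higher (2.56 ± 0.38) and Rplp0 and Rplp0l1 (-1.52 ± 0.32) were lower, against 5.88% and 6.03% of all genes. The libraries did not overlap for 19 genes higher and 52 lower, against 36.6% and 35.2% of all genes. Rpl7l1 was higher in MBNL KD by 0.65 ± 0.025 (adjusted p = 7.4e-20) and Rpl36al lower by -0.65 ± 0.029 (adjusted p = 1.5e-18). Rpl4, Rpl3, Rpl5 and Rpl11 were lower by between -0.25 and -0.28, and Rpsa was higher by 0.09 ± 0.022. Rps27, at -0.06 ± 0.030, did not pass (adjusted p = 0.090), but did without RBPMS KD1 replicate 2 (-0.09) or 3 (-0.08) or MBNL KD replicate 2 (-0.10).

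Genes with and without the start tract were counted in each comparison with D1, as a description and with TMM only. In P, 6 of 38 genes with a tract were higher and 15 lower, against 7 and 18 of 32 without and 40.4% and 37.6% of all genes. RBPMS KD1 had 20 higher and 4 lower of 37 with a tract, and 13 and 6 of 31 without, against 29.5% each way of all genes. In MBNL KD, 9 were higher and 12 lower of 38 with a tract, and 8 and 17 of 31 without, against 33.8% and 33.7%. The median log2 fold changes with and without a tract were -0.04 and -0.09 in P, 0.11 and 0.06 in RBPMS KD1, and -0.03 and -0.12 in MBNL KD.

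The other genes of the pathway were taken from lists of known function. Counts over these lists are given with TMM only, although those of the ribosomal protein genes in P depended on the scaling. Of 15 other genes with TOP mRNAs, mostly translation factors but also Npm1, Nap1l1 and Hnrnpa1 (chaperones of the nucleolus and of histones and a splicing factor), 4 were higher and 8 lower in P, 8 higher and 4 lower in RBPMS KD1, and 3 higher and 10 lower in MBNL KD, with medians of -0.06, 0.11 and -0.12. Over all genes, 40.4% were higher and 37.6% lower in P, 29.5% each way in RBPMS KD1, and 33.8% and 33.7% in MBNL KD. No gene of this list was past both thresholds.

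The 25 ribosome biogenesis genes, which process ribosomal RNA and assemble subunits, stood at 6 higher and 19 lower in P, 2 higher and 17 lower in RBPMS KD1, and 17 higher and 1 lower in MBNL KD, beside all-gene shares of 40.4% and 37.6%, 29.5% and 29.5%, and 33.8% and 33.7%. The medians were -0.15, -0.18 and 0.20. In the direct comparison, 23 were higher and 1 lower in MBNL KD than in RBPMS KD1, against 35.1% and 34.5% of all genes. The comparisons with D1 share its libraries. Bysl, needed for small-subunit assembly, was past both thresholds in P, from 4624, 4731 and 4707 scaled counts in D1 to 2254, 2222 and 2296, a log2 fold change of -1.06 ± 0.036 (adjusted p = 1.8e-23). Rrp9, of the U3 snoRNP, also fell past both thresholds in P (-1.06 ± 0.049), was lower in RBPMS KD1 (-0.31 ± 0.048) and rose in MBNL KD (0.46 ± 0.040).

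Of 11 genes of RNA polymerase I and its factors, 4 were higher and 7 lower in P, 5 and 4 in RBPMS KD1, and 6 and 1 in MBNL KD. All-gene shares were 40.4% and 37.6%, 29.5% and 29.5%, and 33.8% and 33.7%. Polr1a, the largest subunit, fell in P from 6074, 6062 and 6060 scaled counts to 2996, 2993 and 3011, a log2 fold change of -1.02 ± 0.032 (adjusted p = 2.5e-24). Taf1d, a subunit of the promoter factor SL1, fell by 1.02 ± 0.045 in P. Polr1e was at -0.40 ± 0.052 in RBPMS KD1 and 0.85 ± 0.043 in MBNL KD, and differed between them by 1.24 ± 0.044 (adjusted p = 8.1e-21).

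**Figure D5:**
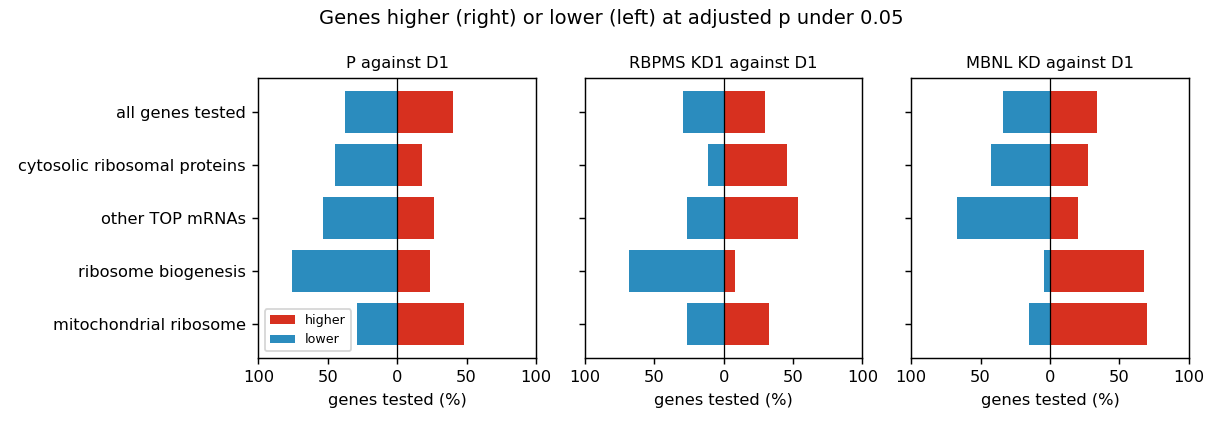
For each list, bars to the right give the percent of tested genes that were higher, and bars to the left the percent lower, at an adjusted p under 0.05 (edgeR) in the 3 comparisons with D1. Ribosome biogenesis genes were mostly lower in RBPMS KD1 (17 of 25) and mostly higher in MBNL KD (17 of 25). Cytosolic ribosomal protein genes were 44 higher and 11 lower of 97 in the former, 27 higher and 42 lower of 98 in the latter. Shares over all genes tested were 29.5% each way for RBPMS KD1, and for MBNL KD 33.8% upwards and 33.7% downwards. With quantile normalization, the MBNL KD counts of cytosolic ribosomal protein genes lay near the all-gene shares of that fit (35.3% and 32.3%).

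Of 15 regulators of growth and of TOP mRNAs, 3 were higher and 9 lower in P, 6 and 6 in RBPMS KD1, and 7 and 8 in MBNL KD, against 40.4% and 37.6%, 29.5% and 29.5%, and 33.8% and 33.7% of all genes. Mtor, the kinase of mTORC1, had scaled counts of 8908, 9003 and 9018 in D1, 9189, 9390 and 9519 in P, 3209, 3162 and 3328 in RBPMS KD1, and 9502, 9300 and 9220 in MBNL KD. RBPMS KD1 was below all other libraries, with a log2 fold change of -1.47 ± 0.031 (adjusted p = 2.3e-24), and the direct difference between the knockdowns was 1.53 ± 0.031. Larp1, which binds TOP mRNAs, was at 21866, 21627 and 21745 in D1 and 14792, 15103 and 15021 in MBNL KD, a fall of 0.54 ± 0.024 (adjusted p = 3.7e-18). In P it was at -0.12 ± 0.025 (adjusted p = 4.3e-05), which did not pass with quantile normalization (-0.02).

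Myc, a transcription factor that drives ribosome production, fell in all 3 comparisons, with log2 fold changes of -2.60 ± 0.042 in P, -0.74 ± 0.033 in RBPMS KD1 and -0.41 ± 0.031 in MBNL KD. Scaled counts of Myc were 6716, 6873 and 6712 in D1 and 1029, 1197 and 1134 in P. Its relative Mycn was past both thresholds in P (-4.16 ± 0.16) and in MBNL KD (-1.29 ± 0.11), and higher in RBPMS KD1 (0.41 ± 0.081). Eif4ebp1, the translation repressor that mTORC1 phosphorylates, rose by 0.85 ± 0.027 in P, 0.34 ± 0.028 in RBPMS KD1 and 1.08 ± 0.027 in MBNL KD.

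Free ribosomal proteins, Rpl5 and Rpl11 among them, are known to stabilise p53, so 8 p53 targets were counted. In P, 1 was higher and 7 were lower, in RBPMS KD1 8 were higher and 0 lower (8 of 8 at an unadjusted p under 0.05, all in that direction), and in MBNL KD 7 were higher and 1 lower. The background was 40.4% and 37.6% in P, 29.5% and 29.5% in RBPMS KD1, and 33.8% and 33.7% in MBNL KD. Cdkn1a, which encodes the cell cycle inhibitor p21, was at -1.84 ± 0.027 in P, 0.39 ± 0.025 in RBPMS KD1 and 0.62 ± 0.025 in MBNL KD. Sesn1, which restrains mTORC1, was the lower gene in MBNL KD, at -1.16 ± 0.050 (adjusted p = 1.3e-18). In RBPMS KD1 Sesn1 was at 0.12 ± 0.041, and it did not pass without D1 replicate 3 (0.10) or RBPMS KD1 replicate 2 (0.11).

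The mitochondrial ribosome, which is encoded by a separate set of nuclear genes, was counted for contrast. Of 73 genes tested, 35 were higher and 21 lower in P, 24 and 19 in RBPMS KD1, and 51 and 11 in MBNL KD. Against the background of 40.4% and 37.6%, 29.5% and 29.5%, and 33.8% and 33.7% of all genes, the counts in RBPMS KD1 were near it. The medians were 0.06, 0.02 and 0.23. Mrpl13 fell in RBPMS KD1 from 3008, 2895 and 3010 scaled counts to 1080, 1171 and 1094, a log2 fold change of -1.41 ± 0.047 (adjusted p = 2.8e-20). It was higher in MBNL KD than in RBPMS KD1 by 1.54 ± 0.046, as was Mrpl49, by 1.14 ± 0.039.

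Rpl34l1 had 0 counts in all 12 libraries, which allows up to 3 counts in each (counting error only), and Rpl31l1 had at most 10. Neither was tested. Rpl39l and Rps4y2 were tested only in the comparisons in which enough libraries had counts.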

How the data were processed

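Poly(A) libraries of PAC1 cells, 12 in all, were compared. For the deposited counts, the authors subsampled the reads with seqtk to a common depth, aligned them with STAR 2.7.11b (genome mRatBN7.2) and, with featureCounts and a RefSeq annotation, counted reads per gene. A second deposited table gives signal values after noise reduction with noisyR and quantile normalization by the authors, and it was used for alternatives only. The library kit marks strand, but the strand setting, the counting of mates and the treatment of reads with several positions are not given in the sources used here. The total counts exceeded the read number per sample that the methods give for the subsampling, and the cause was not tested.

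Each comparison was fitted to the counts of its 6 libraries in R 4.3.3 with edgeR 4.0.16 (filterByExpr, TMM, quasi-likelihood test, Benjamini-Hochberg adjustment over all genes tested). Each standard error is the absolute log2 fold change over the square root of its F statistic. Scaled counts use TMM factors and the geometric mean library. DESeq2 1.42.0 and limma 3.58.1 served for alternatives, with Python 3.11.15 for summaries. In simulated data for RBPMS KD1 against D1, with 200 of 15736 genes changed by 1.5 on the log2 scale, edgeR called 194 of the 200 and 0 others. A limit of 3 counts stands for a count of 0, and such limits cover counting error only.

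The named genes are those past both thresholds, the 5 largest rises and falls in each comparison with D1, the paralogs, the 5 genes with most counts in D1, the stalk genes, Rpl5, Rpl11, Rps6, Rps24 and Rpsa, those with at most 10 counts in every library, pathway genes past both thresholds, and Larp1, Mtor, Myc and Eif4ebp1. Others named are partners of these or are pointed out, and 1 short gene list is not reported here. Classes follow the symbols in the count table. The members and lists were chosen with earlier results of these data known. No positions of mRatBN7.2 were used, and RefSeq sequences are from GRCr8. No transcript lengths of that build were used, so counts of different genes, the paralog shares included, are not scaled to length.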

Additional observations from a re-analysis of the deposited data

How the results depend on the processing

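The alternatives were other scalings (quantile normalization, size factors of DESeq2), other filters (none, or at least 10 counts in every library), DESeq2's Wald test, limma on the authors' normalised values, 1 fit over all 12 libraries, the replicate block, halved counts, an adjusted p under 0.01 and leaving out each library. In P against D1, quantile normalization gave 37 genes higher, 5 past both thresholds and a median of -0.017, and limma gave 35 higher (31.1% of all genes in that fit), 1 past both and -0.023. A minimum of 10 counts gave 0 past both, since Rpl39l and Rpl3l have too few counts (DESeq2 without this filter gave 2, and edgeR 2 at an unadjusted p under 0.05). The median was -0.036 with that minimum, and halved counts gave 1 past both. Quantile normalization and limma turned Rpl27 (0.10 and 0.098), Rpl3 (0.15 and 0.15), Rplp0 (0.26 and 0.27), Rps6 (0.22 and 0.22) and Rpsa (0.050 and 0.056) in P, and Rpl4 in MBNL KD (0.11 and 0.10). In RBPMS KD1, limma and an adjusted p under 0.01 each gave 7 lower. In MBNL KD, quantile normalization gave a median of -0.0049, and limma gave 26 lower (25.7% of all genes in that fit, near which they lay), 1 past both and -0.0052. Between the knockdowns the median was -0.13 with quantile normalization, and limma gave -0.11 and 1 past both. Except where a construction is named, the cause was not tested.

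Leaving out 1 library gave medians of -0.086 to -0.040 in P, -0.064 to -0.036 in MBNL KD and -0.20 to -0.15 between the knockdowns, and in RBPMS KD1 6 to 10 genes lower (6 without D1 replicate 3, 7 without RBPMS KD1 replicate 3) and 0 to 1 past both thresholds. The share of counts was 1.74% in D1 from the normalised values, and without the paralogs 1.74% in D1, 1.91% in P, 1.89% in RBPMS KD1 and 1.65% in MBNL KD. From the normalised values, which carry an added constant of 35, the paralog share rose in P by 6.998 points for Rpl22l1 and 83.1 for Rpl39l. With the replicate block, 18 genes were higher and 44 lower in P, 43 and 11 in RBPMS KD1, 26 and 42 in MBNL KD, and 18 and 56 between the knockdowns. Same-numbered libraries deviated together with correlations of -0.028 to 0.017, so the numbers do not pair the libraries. At this depth, changes of genes with under 100 counts rest on few reads.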

Other observations

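Of the 73 genes listed under canonical symbols of both subunits, 16 had a mean of under 1000 scaled counts in D1, from 124 for Rpl38 to 982 for Rps27a, and the other 57 had between 1027 and 101950. The limit of 1000 was chosen after the counts had been seen, and transcript length was not taken into account. In P, 12 of these 16 were lower and 0 were higher (edgeR, adjusted p under 0.05; 37.6% lower and 40.4% higher over all genes), with a median log2 fold change of -0.43, against 25 lower and 13 higher of the other 57, with a median of -0.04. With quantile normalization, 14 of the 16 were lower and 0 higher in P, against 17 lower and 31 higher of the 57, and 43.1% lower and 36.7% higher over all genes in that fit. RBPMS KD1 had 4 of the 16 higher and 3 lower, against 32 higher and 5 lower of the 57, and 29.5% each way over all genes. In MBNL KD, 7 of the 16 were higher and 2 lower, against 14 higher and 32 lower of the 57, and 33.8% higher and 33.7% lower over all genes. With quantile normalization the MBNL KD counts were 6 higher and 2 lower of the 16 and 19 higher and 20 lower of the 57, the latter near the 35.3% and 32.3% of all genes in that fit. Rpl38, Rps13, Rpl9, Rps21, Rps20 and Rps14 were among the 16 and were named after their values were seen. Rpl39, Rpl22, Rpl36a and Rps4x, the canonical partners of paralogs described above, were also among the 16.

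The 12 libraries all had even counts for 6 of the 91 ribosomal protein genes that reached 100 counts in a library, or 6.59%, against 2.11% of all 13668 such genes. All 6 were among the 13 numbered copies of that depth (Rpl31l2, Rps15al2, Rps15al4, Rpl22l2, Rps19l1 and Rpl27-l1), and 0 were canonical genes or paralogs. How mates were counted is not given in the sources used here, and its part in these counts was not tested.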
